A study of Mus musculus with 5 samples.

Results

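Chemokines are small secreted proteins that steer migrating cells through receptors coupled to G proteins. The panel used here to profile sorted B16-OVA melanoma tumors carried 50 genes of this system besides the CXCR3 ligands Cxcl9, Cxcl10 and Cxcl11, out of 750 endogenous genes. A gene was counted as a member when its probe name began with Ccl, Ccr, Cxcl, Cxcr, Cx3c, Xcl or Xcr, a rule that used no measured value. It gave 32 ligands (21 CC, 9 CXC, 1 CX3C and 1 XC) and 18 receptors (10 CC, 6 CXC, 1 CX3C and 1 XC). For all 50, the probe's accession and symbol were those of the mouse RefSeq annotation (build GRCm38.p6).

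RNA came from live CD45- cells, which exclude most leukocytes, sorted from tumors in KO mice (Prdm1fl/flFoxP3YFP-Cre, n = 2 samples) and in WT mice (FoxP3YFP-Cre, n = 3 samples), all on C57BL/6. Both genotypes carried the Cre allele, which is driven by Foxp3 and acts in regulatory T (Treg) cells, so the floxed Prdm1 gene, encoding the transcription factor Blimp1, was deleted in Treg cells of KO mice and not by design in the sorted cells. Mice of both genotypes received B16.OVA cells, melanoma cells that express ovalbumin, under the skin, and NP-OVA into the peritoneum in CFA at day 0 and in IFA at day 7. Tumors were taken at 1.5 cm3 or less. Mice of the study were generally 5 to 10 weeks old when used. The comparison asks whether losing Blimp1 in Treg cells changed gene expression in the tumor outside the leukocyte compartment.

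Endogenous probes summed to 450207 and 461822 counts in KO samples, against 369515 to 423472 counts in WT samples. A probe was called above background in a sample when its raw count exceeded the mean plus 2 SD of the 8 negative control probes of that sample, a level of 14.8 and 17.7 counts in KO samples, against 13.1 to 14.6 counts in WT samples. The leukocyte gene Ptprc, which encodes CD45, had 1 to 3 raw counts in KO samples, against 1 to 4 in WT samples. Prdm1 had 4 and 6 raw counts in KO samples, against 3 to 10 in WT samples, and Foxp3 reached at most 5 counts, so none of these lay above background and the deletion could not be checked in this RNA. The melanocyte-lineage genes S100b and Mcam lay above background in all 5 samples, while in at least 2 samples the same held for 4 of 23 T and NK cell markers, 0 of 8 B cell markers, 4 of 15 myeloid markers, 3 of 9 endothelial markers and 5 of 7 fibroblast markers. Mcam was the only marker of these lists under an unadjusted p of 0.05, with 2684 and 2607 normalized counts in KO samples, against 1727, 1916 and 1668 in WT samples (log2 fold change 0.58 ± 0.11, SE; edgeR adjusted p = 0.487). No 2 samples agreed within counting noise. The labels name samples rather than mice, so the p-values measure the spread between these samples. As these are bulk samples, fewer cells of a type and less RNA per cell cannot be told apart.

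Chemokines are grouped by the spacing of their first cysteines into CC, CXC, CX3C and XC families, and each receptor usually binds several ligands of its own family. Some members are made steadily in a given tissue, whereas others are switched on by inflammatory signals through transcription factors such as NF-κB. In tumors, ligands released by tumor cells, fibroblasts and vessel cells draw in T cells, monocytes, neutrophils and dendritic cells, while most of the receptors are carried by those leukocytes.

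Most of this system was not measurably expressed in the sorted cells. Of the 50 members, 19 (38%) lay above background in at least 1 sample, 13 (26%) in at least 2 samples and 5 (10%) in all 5 samples. Over all 750 endogenous genes these shares were 59.7%, 53.5% and 43.3%. This minimum of 2 samples was met by 9 of the 32 ligands and 4 of the 18 receptors. By sample, 13 and 6 members were above background in KO 1 and KO 2, against 9, 13 and 10 in WT 1, WT 2 and WT 3. KO 2, with the fewest members, also had the highest background level. Without KO 2 the number above background in at least 2 samples remained 13, and the same 13 genes passed.

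**Figure D1:**
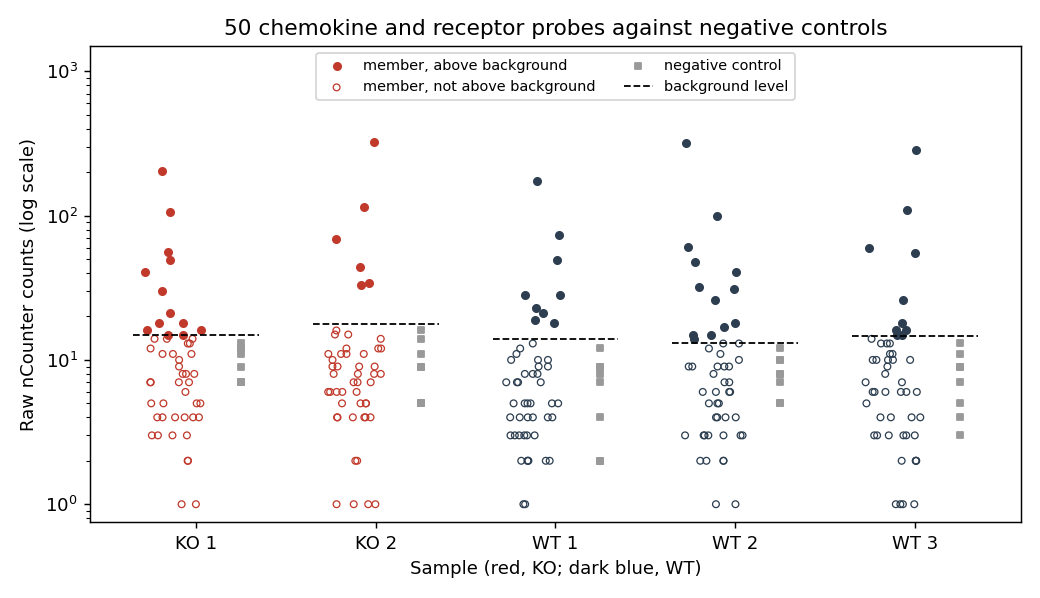
Raw counts (log scale) of the 50 members and the 8 negative control probes in each of the 5 samples, with the background level of each sample as a dashed line. In every sample most members lie among the negative controls, with 13 and 6 members above the line in KO 1 and KO 2, and 9, 13 and 10 in WT 1, WT 2 and WT 3.

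The 31 members that lay above background in no sample had raw counts of 1 to 16. They comprised 21 ligands and 10 receptors. Among the ligands were Cxcl12, which retains hematopoietic cells in bone marrow, Cxcl13, which guides B cells into follicles, Ccl19, which guides T cells and dendritic cells to lymph nodes, and Ccl17 and Ccl22, which bind CCR4 on T cells. The inflammatory ligands Ccl3, Ccl4, Ccl6, Ccl7, Ccl12, Ccl20, Cxcl2 and Cxcl3 were likewise not above background, nor were Ccl1, Ccl24, Ccl26, Ccl28, Cxcl14, Cxcl15, Cxcl16 and Xcl1. Receptors in this set included Ccr2, found on monocytes, Ccr7 and Cxcr5, which direct lymphocytes within lymphoid tissue, and Ccr3, Ccr4, Ccr6, Cxcr1, Cxcr4 and Cxcr6. At this depth a difference between genotypes in these 31 genes was not detectable, which does not show that they were absent.

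Another 6 members were above background in a single sample each, and were not tested. Ccl21a, a ligand of CCR7, had 14 and 15 raw counts in KO samples, against 4, 15 and 9 in WT samples, and passed in WT 2. Ccrl2, an atypical receptor that binds chemerin, had 14 and 10 counts in KO samples, against 1, 26 and 13 in WT samples. Cx3cl1, or fractalkine, a ligand anchored in the membrane, had 12 and 6 counts in KO samples, against 7, 14 and 2 in WT samples. Ccl21a, Ccrl2 and Cx3cl1 thus each passed in WT 2 only. Cxcr2, the receptor of neutrophil-attracting ligands, had 14 and 11 counts in KO samples, against 11, 9 and 16 in WT samples. Ccr9, the receptor of Ccl25, had 8 and 9 counts in KO samples, against 10, 6 and 15 in WT samples. Both receptors passed in WT 3 only. Ccr8, carried by Treg cells among others, had 16 and 9 counts in KO samples, against 12, 8 and 11 in WT samples, and passed in KO 1. In all 6 genes the genotypes overlapped. Ccl21a has near-identical annotated copies, so its probe may read more than 1 gene.

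The 13 members above background in at least 2 samples were compared between genotypes in a fit over all 401 genes that passed this filter, with counts scaled by the housekeeping probes (edgeR quasi-likelihood test). No member changed at an adjusted p of 0.05, and no gene of the panel did (0 of 401, 0%). limma called 0 genes. DESeq2 called 3 of the 269 genes to which its independent filtering left an adjusted p. Only 2 members, Ccl5 and Cxcr3, were among those 269, and neither was called. At an unadjusted p of 0.05, 1 of the 13 members, Cxcl1, was lower in KO samples and 0 were higher, whereas over all tested genes 25 (6.23%) passed, 14 lower (3.49%) and 11 higher (2.74%). Fitted values were higher in KO samples for 4 members and lower for 9, with a median log2 fold change of -0.07. Over all 401 genes, 158 were higher and 243 (60.6%) lower, with a median of -0.07, so the members and the panel had the same median to 2 decimals. These directions depended on the scaling. Scaling by the positive controls shifted the median of all genes by 0.14, and 7 members were then higher and 6 lower, with 24 higher and 4 lower calls over all genes at the unadjusted threshold. With DESeq2 size factors 6 members were higher and 7 lower, with 17 higher and 13 lower calls. Among the 9 ligands the median was -0.16, and among the 4 receptors it was 0.00.

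**Figure D2:**
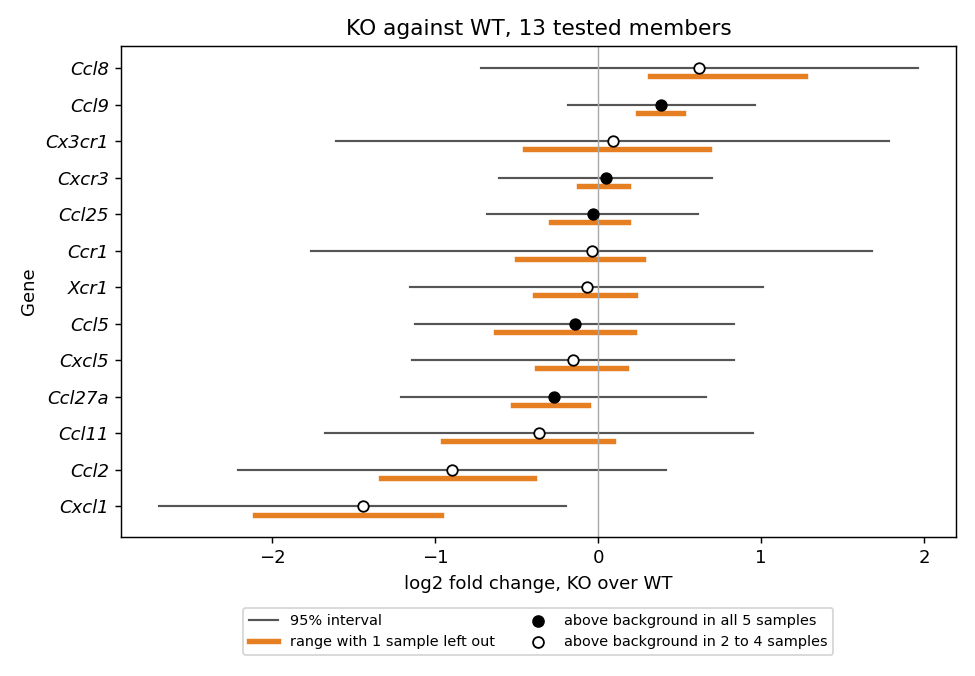
Log2 fold change of KO over WT (horizontal axis) for the 13 tested members, with the 95% interval of the edgeR fit as a thin line and the range obtained when 1 sample was left out as a thick bar. Every interval but that of Cxcl1 includes 0, and the filled circles mark the 5 members above background in all 5 samples.

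Ccl5, or RANTES, which draws T cells, monocytes and other leukocytes through receptors such as CCR1 and CCR3, was far above background in every sample. Its normalized counts were 178 and 319 in KO samples, against 178, 338 and 306 in WT samples. A low level therefore occurred once in each genotype, in KO 1 and WT 1, and the genotypes overlapped. The mean was 248 ± 99.7 in KO samples and 274 ± 84.6 in WT samples (SD, n = 2 and 3). The log2 fold change was -0.14, with a 95% interval of -1.12 to 0.83 (edgeR adjusted p = 0.958). Without KO 1 it was 0.22 and without KO 2 it was -0.62, so its sign rested on single samples.

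The CXCR3 ligands, which attract activated T cells, gave a different order of samples. Cxcl10 had 1510 and 1760 normalized counts in KO samples, against 1573, 4202 and 3854 in WT samples. Cxcl11 had 52.5 and 49.3 normalized counts in KO samples, against 83.4, 306 and 193 in WT samples. Cxcl9 had 108 and 157 normalized counts in KO samples, against 83.4, 516 and 103 in WT samples. KO 2 thus had a Ccl5 level near those of WT 2 and WT 3 while its Cxcl10 and Cxcl11 levels were well below theirs. On the log2 scale and without centering, Ccl5 minus the mean of the 3 CXCR3 ligands was -0.20 and 0.42 in KO samples. In WT samples it was -0.32, -1.37 and -0.47. The difference between genotypes was 0.83, and 0.50 to 1.13 when a sample was left out. An exact two-sided permutation test gave p = 0.2, the smallest value that 2 samples against 3 allow, and this contrast was chosen after the values were seen.

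**Figure D3:**
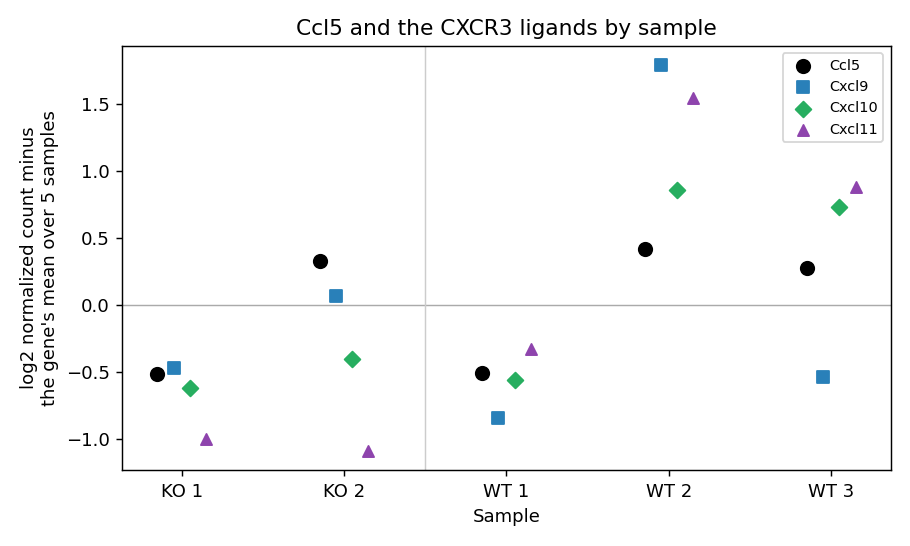
Log2 normalized counts of Ccl5, Cxcl9, Cxcl10 and Cxcl11 in the 5 samples (horizontal axis), each gene centered on its own mean over the samples. Ccl5 is low in KO 1 and WT 1 and high in KO 2, WT 2 and WT 3, while Cxcl10 and Cxcl11 are high in WT 2 and WT 3 only.

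Ccl25 and Ccl27a, which direct T cells to particular tissues, were also above background in all samples. Ccl25, known for guiding CCR9-bearing lymphocytes to the thymus and small intestine, had 49.0 and 68.1 normalized counts in KO samples, against 50.5, 65.1 and 64.2 in WT samples. The means of 58.5 ± 13.5 in KO samples and 59.9 ± 8.19 in WT samples (SD) differed by less than the spread between samples, and the 95% interval of the log2 fold change was -0.68 to 0.61. Its receptor Ccr9 lay above background in WT 3 only. Ccl27a, a skin chemokine that binds CCR10, had 42.9 and 33.5 normalized counts in KO samples, against 28.8, 51.2 and 58.8 in WT samples. WT samples lay on both sides of KO samples, and the log2 fold change was -0.27 ± 0.37 (SE; edgeR adjusted p = 0.884). Ccl27a has a near-identical annotated copy, so its counts may come from more than 1 gene.

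Ccl9, a CC ligand of mice that acts through CCR1, was the only tested member with higher normalized counts in every KO sample than in any WT sample. It had 35.9 and 43.4 normalized counts in KO samples, against 28.8, 34.1 and 27.8 in WT samples. The gap between KO 1 and WT 2 was small beside the counting error, as the raw count of 41 in KO 1 had a 95% Poisson interval of 29.4 to 55.6 and that of 32 in WT 2 had one of 21.9 to 45.2. Over all tested genes, 36 of 401 (8.98%) had both KO samples above all WT samples, so 1 of 13 members was near the panel's share. The log2 fold change of Ccl9 was 0.39 ± 0.22 (SE) and did not pass the test (edgeR adjusted p = 0.744). It was 0.24 to 0.52 when a sample was left out.

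Myeloid markers did not share a direction. The 15 myeloid markers on the panel summed to 365 and 384 normalized counts in KO samples, against 273, 372 and 247 in WT samples. WT 2 thus overlapped the KO samples, and Cd68 alone made up most of each sum. Of the 4 tested markers, Cd68 and Lyz2 had higher values in KO samples (log2 fold change 0.61 and 0.36) and Fcgr1 and Fcer1g lower (-0.48 and -0.15), and none passed the test. Cd68, an endosomal protein of macrophages, had both KO samples above all WT samples as Ccl9 did, with 243 and 246 normalized counts in KO samples, against 141, 210 and 128 in WT samples (edgeR adjusted p = 0.71). Cd68 was singled out after its values were seen. Of the 15 markers, 9 lay above background in no sample, among them Itgam, with 1 to 5 raw counts, and Emr1, with 1 raw count in every sample. The part of such cells in the Ccl9 counts was not tested.

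Ccl2, Ccl8 and Ccl11 are monocyte and eosinophil attractants encoded side by side with Ccl7, Ccl12 and Ccl1 on chromosome 11. Of these 6 neighbors, 3 were tested. Ccl2, the ligand of CCR2 that recruits monocytes, had 18.4 and 10.9 normalized counts in KO samples, against 19.6, 43.7 and 19.3 in WT samples. Both KO samples lay below all WT samples, but KO 1 missed WT 3 by about 1 count, and KO 2 was not above background. The log2 fold change was -0.90 ± 0.52 (SE; edgeR adjusted p = 0.744), and without WT 2, the highest sample, it was -0.40. When samples were scaled by TMM, DESeq2 size factors or the positive controls, the genotypes overlapped for Ccl2.

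The fibroblast collagens Col1a1 and Col3a1 had their highest and lowest values in the same samples as Ccl2. Col1a1 had 37.6 and 5.92 normalized counts in KO samples, against 20.6, 58.7 and 20.3 in WT samples. Col3a1 had 47.3 and 7.89 normalized counts in KO samples, against 43.2, 100.3 and 18.2 in WT samples. WT 2 was thus the highest and KO 2 the lowest sample for all 3 genes. These collagens were named after their values were seen, and the other 3 tested fibroblast markers did not follow them. Fn1, Thy1 and Pdgfrb had higher values in KO samples, with log2 fold changes of 0.52, 0.47 and 0.13, and Thy1 was highest in KO 2. None of the 5 passed the test. The 7 fibroblast markers on the panel summed to 1461 and 1400 normalized counts in KO samples, against 1019, 1607 and 573 in WT samples. Fn1 alone made up most of each sum, with 1274 and 1294 in KO samples, against 871, 1358 and 454 in WT samples. The part of fibroblasts in the Ccl2 counts was not tested.

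Ccl8, a monocyte attractant that in mice binds CCR8, had 26.3 and 32.6 normalized counts in KO samples, against 10.3, 33.1 and 13.9 in WT samples. Both KO samples and WT 2 were above background, whereas WT 1 and WT 3 were not. The log2 fold change was 0.62 ± 0.53 (SE; edgeR adjusted p = 0.824), and without WT 2 it was 1.27, with an unadjusted p under 0.05 but an adjusted p of 0.825. Ccl11, or eotaxin, which attracts eosinophils through CCR3, had 15.8 and 7.89 normalized counts in KO samples, against 23.7, 10.7 and 11.8 in WT samples. It was above background in KO 1 and WT 1 only, and the log2 fold change was -0.37 ± 0.52 (SE). Ccl2 was thus highest in WT 2, Ccl11 in WT 1, and Ccl8 nearly equal in WT 2 and KO 2, so these neighboring genes did not share an order of samples.

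Cxcl1, an attractant of neutrophils through CXCR2, was lower in KO samples at the unadjusted threshold. Raw counts were 4 and 8 in KO samples, against 10, 18 and 16 in WT samples. Only WT 2 and WT 3 were above background, so the gene entered the test through WT samples alone. That filter favored a lower value in KO samples, so the direction is not evidence of its own. Normalized counts were 3.50 and 7.89 in KO samples, against 10.3, 19.2 and 17.1 in WT samples, with no overlap. The log2 fold change was -1.45 ± 0.49 (SE; edgeR adjusted p = 0.71), and it was -2.11 to -0.96 when a sample was left out. Without KO 1, WT 2 or WT 3, Cxcl1 no longer had an unadjusted p under 0.05, nor did it with the methods' t-test or in the deposited signal. The WT mean of 15.5 normalized counts was 1.02-fold the mean background level of the KO samples, 15.2. That mean includes WT 1, which was not above background, so the counts set no lower bound on a fold difference. The WT 2 count of 18 had a 95% Poisson interval of 10.7 to 28.4 and the KO 2 count of 8 had one of 3.45 to 15.8. In the deposited signal, where low values are set to a floor of 15, the log2 fold change was -0.13, and with background subtracted it was -3.00. Cxcl1 and Ccl2 were the 2 members with both KO samples below all WT samples, against 59 of 401 tested genes (14.7%).

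Cxcl5, another neutrophil attractant that acts through CXCR2, had 15.8 and 11.8 normalized counts in KO samples, against 21.6, 13.9 and 10.7 in WT samples. It was above background in KO 1 and WT 1 only, the genotypes overlapped and the log2 fold change was -0.16 ± 0.39 (SE). Cxcl2 and Cxcl3, which share CXCR2 and lie in the same run of adjacent chemokine genes on chromosome 5 (in the order Cxcl3, Cxcl15, Cxcl1, Cxcl2), were not above background in any sample, and Cxcr2 itself was so in WT 3 only.

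**Figure D4:**
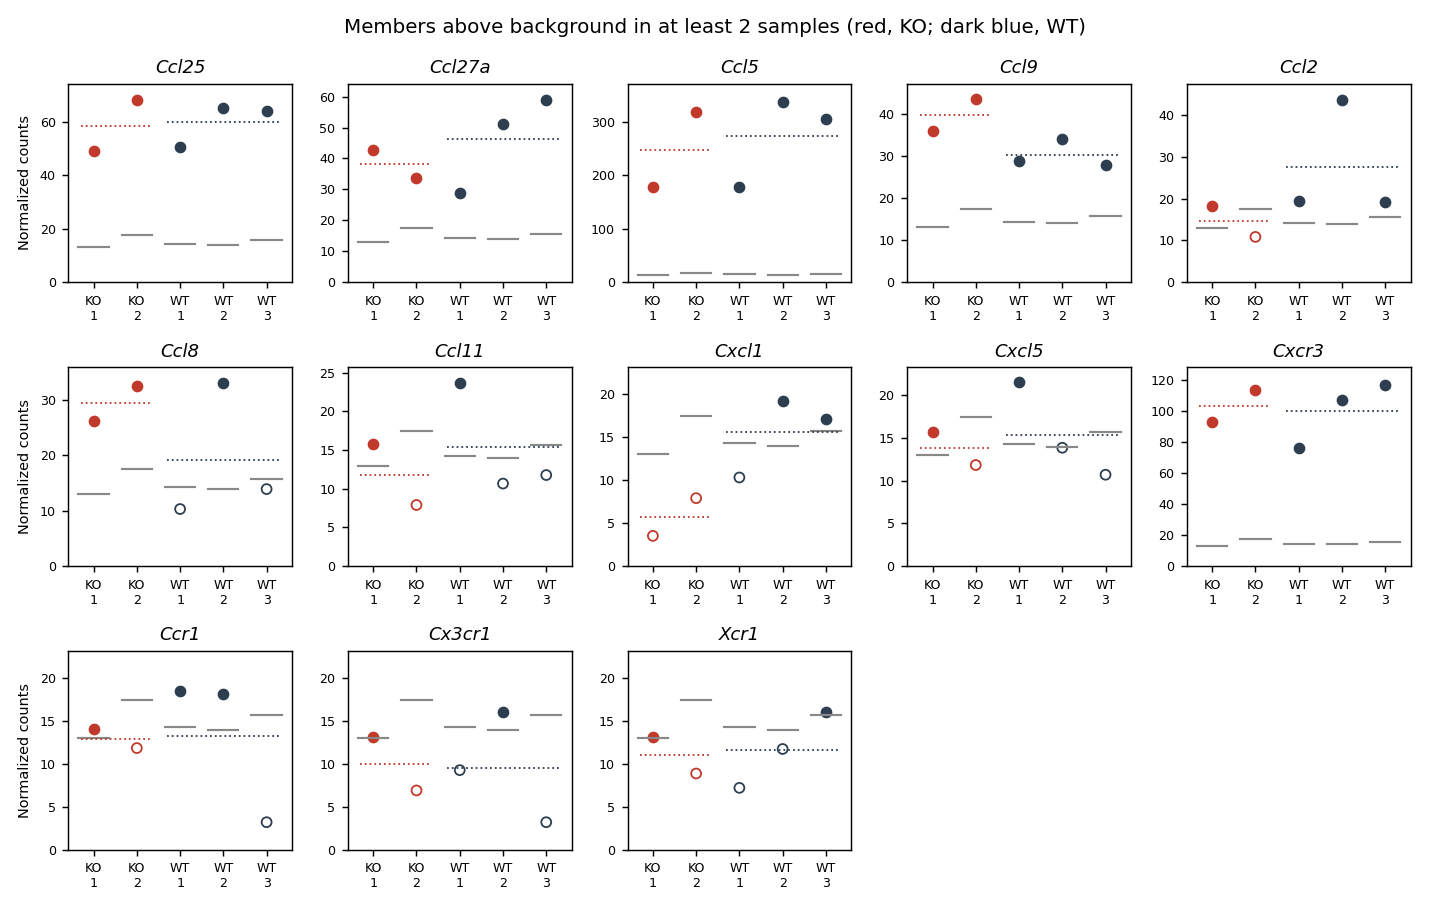
Normalized counts of the 13 members above background in at least 2 samples, with KO samples in red to the left and WT samples in dark blue. Filled circles are above background, open circles are not, gray bars give the background level of each sample and dotted lines the genotype means. Ccl9 is the only gene with both KO points above all WT points, and Cxcl1 and Ccl2 those with both below.

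The promoters of Cxcl1, Cxcl2 and Cxcl3 are shown because Cxcl1 was the only member at the unadjusted threshold while Cxcl2 and Cxcl3 were at background, and that of Ccl9 because its groups also did not overlap. The groups of Ccl2 did not overlap either, but no promoter window was available for it. Each sequence is the 250 bases before the annotated start in RefSeq (GRCm38.p6), written 5′ to 3′ on the strand of the gene, and capitals mark matches to GGG, any 2 bases, then TTTCC, a motif of the NF-κB type, searched on both strands.
Cxcl1, chr5:90890995-90891244, plus strand: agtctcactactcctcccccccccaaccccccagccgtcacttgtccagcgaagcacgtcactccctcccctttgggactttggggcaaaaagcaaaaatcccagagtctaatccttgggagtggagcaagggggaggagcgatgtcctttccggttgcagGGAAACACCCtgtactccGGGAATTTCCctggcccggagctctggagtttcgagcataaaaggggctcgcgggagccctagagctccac
Cxcl2, chr5:90903649-90903898, plus strand: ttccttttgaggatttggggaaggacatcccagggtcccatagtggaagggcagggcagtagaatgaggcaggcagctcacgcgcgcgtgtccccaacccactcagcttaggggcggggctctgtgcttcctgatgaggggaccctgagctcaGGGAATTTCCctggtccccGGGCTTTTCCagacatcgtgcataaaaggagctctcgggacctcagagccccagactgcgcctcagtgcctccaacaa
Cxcl3, chr5:90785851-90786100, plus strand: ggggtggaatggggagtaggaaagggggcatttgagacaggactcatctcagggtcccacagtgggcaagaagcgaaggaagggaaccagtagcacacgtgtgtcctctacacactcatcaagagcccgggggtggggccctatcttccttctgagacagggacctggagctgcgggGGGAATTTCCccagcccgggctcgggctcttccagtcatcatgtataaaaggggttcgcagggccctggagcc
Ccl9, chr11:83578637-83578886, minus strand: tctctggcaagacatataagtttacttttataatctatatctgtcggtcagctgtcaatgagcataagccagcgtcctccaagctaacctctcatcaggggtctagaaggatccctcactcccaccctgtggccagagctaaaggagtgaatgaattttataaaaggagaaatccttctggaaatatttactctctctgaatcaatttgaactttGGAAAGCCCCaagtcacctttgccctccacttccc
Counted from the start, GGGAATTTCC lies at -71 to -62 in Cxcl1, at -97 to -88 in Cxcl2 and at -73 to -64 in Cxcl3. Cxcl1 holds a further match on the opposite strand and Cxcl2 a further match on the same strand, and Ccl9 holds a single match on the opposite strand, at -35 to -26. Of 32851 promoter windows in the RefSeq table (250 before and 50 after the start), 535 (1.63%) hold the motif, and of the 44 windows of members 6 (13.6%) do, each of a different gene. These windows cover 38 of the 50 members, so the remaining members were not searched. The other 2 genes with a match are Ccl20 and Ccr3, neither above background in any sample. Cxcl1, Cxcl2 and Cxcl3 lie in the same run of adjacent genes and share GGGAATTTCC, so their windows are not independent. A match is a description of the letters and not a site shown to be used.

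Cxcr3, the receptor of Cxcl9, Cxcl10 and Cxcl11 and best known from activated T cells, was the only receptor above background in all samples. It had 92.8 and 113 normalized counts in KO samples, against 76.2, 107 and 117 in WT samples. The genotypes overlapped, with means of 103 ± 14.6 in KO samples and 99.8 ± 21.1 in WT samples (SD). The log2 fold change was 0.05, with a 95% interval of -0.61 to 0.70 (edgeR adjusted p = 0.978). T cell genes were low in the same RNA. Cd4 and Cd8a had at most 8 raw counts and lay above background in no sample. Cd3d was above background in 3 samples, with 15 and 12 raw counts in KO samples, against 16, 21 and 9 in WT samples. Klrd1 and Gzma were above background in 2 samples each. The 23 T and NK cell markers together summed to 158 and 172 normalized counts in KO samples, against 141, 183 and 137 in WT samples, with Cd28 the only one above background in all samples. As 16 of the 23 lay above background in no sample, these sums are largely background counts and do not measure T or NK cells. Which cells the Cxcr3 counts came from was not tested.

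The other 3 tested receptors sat at the edge of detection. Ccr1, a receptor of Ccl5 and Ccl9 on myeloid cells, had 16 and 12 raw counts in KO samples, against 18, 17 and 3 in WT samples. Cx3cr1, the fractalkine receptor of monocytes and macrophages, had 15 and 7 raw counts in KO samples, against 9, 15 and 3 in WT samples. Xcr1, which marks cross-presenting dendritic cells, had 15 and 9 raw counts in KO samples, against 7, 11 and 15 in WT samples. Ccr1 was above background in KO 1, WT 1 and WT 2, Cx3cr1 in KO 1 and WT 2, and Xcr1 in KO 1 and WT 3. The genotypes overlapped for all 3, and the 95% intervals of the log2 fold change were -1.76 to 1.68 for Ccr1, -1.61 to 1.79 for Cx3cr1 and -1.16 to 1.01 for Xcr1. Each interval reached beyond 2-fold in both directions, so a difference of that size was not resolved.

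Among ligand and receptor pairs, both partners were above background in at least 2 samples only where the receptor was Ccr1 or Cxcr3. Ccl5 and Ccl9 were measured together with Ccr1, and the CXCR3 ligands with Cxcr3. For Ccl2, Ccl8, Ccl11, Ccl25, Cxcl1 and Cxcl5 the receptors Ccr2, Ccr8, Ccr3, Ccr9 and Cxcr2 were above background in at most 1 sample. Of the 13 tested members, WT 2 was the highest sample for 5, WT 1 and WT 3 for 3 each, KO 2 for 2 and KO 1 for 0.

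Related genes outside the name rule showed no change that passed the test. Of 3 other chemokine-like or chemokine-cleaving genes, Ppbp, Cklf and Dpp4, 2 were tested, and 1 was higher and 1 lower in KO samples. Of 6 probes for other chemoattractant receptors 2 were tested, both lower in KO samples, and both read the same gene, Ptgdr2, a prostaglandin receptor. Of 10 inflammatory cytokines and growth factors 3 were tested, Csf1, Lif and Tgfb1, with log2 fold changes of -0.93, -0.04 and -0.13. Csf1 had 337 and 194 normalized counts in KO samples, against 498, 683 and 339 in WT samples, and did not pass the test (edgeR adjusted p = 0.71). Il1b, Il6 and Tnf, cytokines that commonly induce chemokines or are induced with them, were at background in all samples. Of 4 genes of chemokine receptor signaling 3 were tested, with 1 higher and 2 lower. At an unadjusted p of 0.05, 0 genes of these 4 lists passed (edgeR), against 1 of the 3 CXCR3 ligands, Cxcl11, which was lower in KO samples (log2 fold change -1.93 ± 0.59, SE; adjusted p = 0.704).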

How the data were processed

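RNA (100 ng per sample) was hybridized to the nCounter Mouse PanCancer Immune Profiling panel. The authors deposited raw counts for 784 probes, 750 endogenous, 20 housekeeping, 8 negative and 6 positive, with nothing subtracted or scaled. They also deposited a normalized signal, made in nSolver per the methods, which equals the raw count times a single factor per sample (0.842 and 0.959 in KO, 0.981, 1.04 and 0.996 in WT) with endogenous values under 15 set to 15. That floor hides differences among low probes, so the signal served as an alternative only. A further deposited column, a percentage of samples over a threshold, moved in steps of 12.5%, which 5 samples cannot give, and was left out.

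Counts were divided by each sample's housekeeping geometric mean relative to the mean over samples (1.14 and 1.01 in KO, 0.971, 0.938 and 0.935 in WT). These are the normalized counts. Genes above the mean plus 2 SD of the negative probes in at least 2 of 5 samples (401 of 750) were tested in edgeR 4.0.16 (glmQLFit, glmQLFTest, R 4.3.3), two-sided, with Benjamini-Hochberg adjustment over the 401 genes and genotype as the only term. Levels of different members were not ranked against each other. Every member above background in at least 1 sample was named with its counts, and other genes from lists of related genes and cell type markers where their unadjusted p was under 0.05 or as stated. The members and lists were chosen with earlier results of these data known. Poisson intervals cover counting error only, with 95% confidence. The comparison was repeated with scaling by TMM, by DESeq2 size factors or by positive controls, and with other filters and detection thresholds. It was also repeated in DESeq2 1.42.0, in limma 3.58.1 (log2 scale, pseudocount 1) and by an equal-variance t-test on those log2 values. The methods give nSolver and a p under 0.05 for the panel but name no test, so this t-test need not be theirs. Further alternatives were background subtraction, the deposited signal, a replicate block (replicates 1 and 2 only) and leaving out each sample in turn. The detection count without KO 2 and the Ccl5 contrast without each sample were added after the data were seen. One member is not reported here by name.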

Additional observations from a re-analysis of the deposited data

How the results depend on the processing

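In none of the 16 alternatives run on the members did a tested member pass an adjusted p of 0.05 (DESeq2 left an adjusted p to 2 of the 13), and 5 of the 13 kept their sign throughout. At an unadjusted p of 0.05, 0 members passed with a mean raw count of at least 20 (which leaves out Cxcl1), with the t-test or in the deposited signal. With a WT sample left out, 0 to 1 passed. Without WT 3 the count was 0, and without WT 2 the member that passed was Ccl8 and not Cxcl1. Over all genes this count was 39 without a filter and 10 to 50 with a sample left out (10 without KO 2, 50 without WT 1, 16 without KO 1 or WT 3), and DESeq2 gave 3 genes at the adjusted threshold. Members above background in at least 2 samples numbered 10 (20%) at the mean plus 3 SD, against 47.9% of all genes. They numbered 17 (34%) over the highest negative probe, against 55.5%, and 7 (14%) at a raw count of 20, against 46%. Members whose groups did not overlap numbered 10 of 50 (20%) without a filter, against 24.5% of all genes, and 4 to 5 of 13 (30.8% to 38.5%) with a sample left out (5 without KO 1 and 5 without KO 2), against 35.4% to 53.9% of all tested genes.

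Of 202 values of single members, 32 changed sign. TMM, DESeq2 size factors and positive controls turned Ccl25 to 0.018, 0.015 and 0.099, and Ccr1 to 0.0065, 0.0052 and 0.11, and positive controls turned Xcr1 to 0.085. limma and the t-test gave 0.25 for Ccr1. Cx3cr1 was -0.37 with background subtracted and -0.017 in the deposited signal. With a sample left out, log2 fold changes ranged from -0.29 to 0.18 for Ccl25, from -0.62 to 0.22 for Ccl5, from -0.45 to 0.68 for Cx3cr1, from -0.95 to 0.089 for Ccl11, from -0.50 to 0.28 for Ccr1, from -0.38 to 0.17 for Cxcl5, from -0.12 to 0.18 for Cxcr3 and from -0.39 to 0.23 for Xcr1. The cause of these sign changes was not tested.

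Replicate numbers were used as names only. Same-numbered samples of the 2 genotypes correlated at 0.29 and 0.00 in their deviations. The replicate block used replicates 1 and 2 only and so left out WT 3. In that fit Ccl25 was 0.013, Cx3cr1 was -0.32 and Xcr1 was 0.23. Without WT 3 and with no block the values were nearly the same, at 0.018, -0.31 and 0.23. With the block, 17 genes and 1 member had an unadjusted p under 0.05, and 0 passed adjustment. With 2 against 3 samples and most members near background, moderate changes could not be resolved.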
